A study of Rattus norvegicus with 12 samples.

Results

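The subject is the change in gene expression over 3 days of adipogenic induction in fibro-adipogenic progenitors (FAPs) of unloaded rat soleus muscle. The cells came from rats (Rattus norvegicus) after 14 days of hindlimb suspension (HS), a procedure in which the hind legs bear no weight. Replicates 1 and 2 of HS14 at day 3 of induction were set against HS14 at day 0, replicates 1 and 2. These 4 libraries were chosen by their labels from the 12 of the series, and they were described across all expressed genes. The other 8 libraries are primary FAP cultures of the same muscle from rats after 7 days of suspension (HS7) and from control rats with 0 days of it, again with 2 libraries at day 3 and 2 at day 0. All cultures were grown on dishes in a serum medium to a subconfluent state, and the labels' protocols have the day 3 cultures moved to an induction medium that holds dexamethasone, insulin and 3-isobutyl-1-methylxanthine. The labels give no strain, age or number of animals, and they leave unsaid whether the 2 replicates of a group are different animals or different dishes. Each p-value of a gene below is thus set by how far libraries of a group spread, and that spread may be technical alone. It was pooled over the 6 groups and drawn toward the spread of all genes. No culture was kept to day 3 without the induction medium, so the effect of the medium and that of added time in culture cannot be told apart.

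FAPs are mesenchymal cells that lie between the fibres of skeletal muscle. They help muscle to regenerate after injury, and in disused or diseased muscle they can turn into fat cells or into cells that lay down fibrous matrix. The induction medium is the classical adipogenic mixture: insulin acts through the insulin and IGF1 receptors, dexamethasone activates the glucocorticoid receptor, and 3-isobutyl-1-methylxanthine inhibits phosphodiesterases and so raises cyclic AMP. In preadipocyte cultures these signals are known to switch on a cascade of transcription factors that ends with PPAR-gamma and C/EBP-alpha.

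The table names genes by Ensembl identifier alone, and the identifiers could not be paired with gene symbols here: 0 of 32622 matched the table of rat genes that was used. The results below are therefore about groups of genes made from their levels and changes, and about 4 identifiers. Markers of FAPs, adipocytes, muscle, vessel or immune cells were not examined, so the labelled cell type was not checked. RNA was measured in bulk, and fewer cells of a type and less RNA per cell cannot be told apart in any value below.

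The HS14 libraries held 18803603 and 19916270 counts at day 3, and 19373771 and 21484885 at day 0. At least 1 read was seen for 14994 and 15053 genes at day 3, and for 15051 and 15081 at day 0. The 2 replicates of a day lay close to each other: the median gene differed between them by 0.109 on the log2 scale at day 3 and by 0.106 at day 0. Between a day 3 and a day 0 library the median gene differed by 0.411 to 0.426. Correlations over genes of log2 CPM, the counts scaled to a fixed library size, were 0.990 within day 3 and 0.991 within day 0, and 0.926 to 0.927 between the days. The first principal component of the 4 libraries held 88.0% of their variance and placed the day 3 libraries at 59.3 and 58.9 and the day 0 libraries at -58.6 and -59.6. The replicates did differ by more than the sampling of single reads, with a chi-square of 2.80 per degree of freedom at day 3 and 3.12 at day 0 over genes with at least 20 reads. Even numbers made up 69.2% to 70.7% of the counts from 1 to 20 in these 4 libraries, so a low value may rest on fewer molecules than its count and carry more counting error. Pairs of counts from 1 molecule would also raise the chi-square, by a part that was not tested.

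More than 50% of the expressed genes changed over the 3 days. Of 13215 genes tested, 7376 (55.8%) passed the false discovery rate (FDR) of 0.05 in edgeR's quasi-likelihood test, 3662 of them higher at day 3 (27.7%) and 3714 lower (28.1%). At an unadjusted p under 0.05 there were 7929 genes. Both day 3 libraries lay above both day 0 libraries in 5238 of the tested genes (39.6%) and below both in 5091 (38.5%), so 2 against 2 libraries separate most genes whether they passed the test or not. Among the genes that passed, 3657 rises and 3712 falls were separated in this way and 7 genes overlapped. Of the 5839 genes that did not pass, 2960 were separated too. Leaving out any 1 of the 4 libraries gave 6199 to 6349 changed genes.

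Most changes were small. The median rise among the genes that passed was 1.52-fold and the median fall 1.63-fold. In 3294 of the 7376 genes (44.7%) the fitted change was under 1.5-fold, and the smallest change that passed was 0.113 on the log2 scale. A fitted change of at least 2-fold was reached by 1055 rises (7.98% of the tested genes) and 1347 falls (10.2%). When the hypothesis of a change no larger than 2-fold was tested in place of no change, 1426 genes (10.8%) passed, 615 higher (4.65%) and 811 lower (6.14%). Falls outnumbered rises among the large changes. The balance of the whole set depended on the scaling: 49.6% of the changed genes were higher with TMM scaling, and 44% (3242 rises and 4128 falls) with scaling to the total count.

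**Figure D1:**
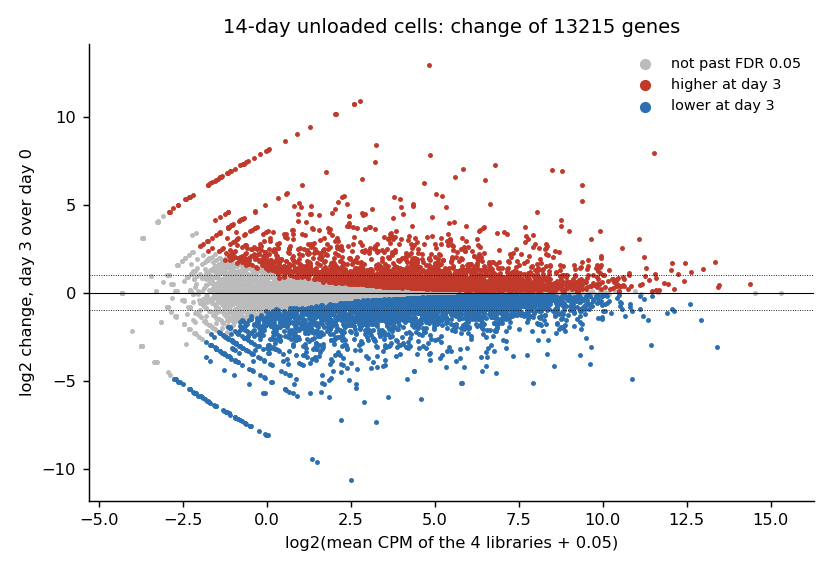
Each point is 1 of 13215 tested genes of 14-day unloaded cells: the horizontal axis is log2 of its mean CPM over the 4 libraries plus 0.05, the vertical axis its fitted log2 change at day 3 over day 0. Red genes (3662) were higher and blue genes (3714) lower at an FDR of 0.05, grey genes did not pass, and dotted lines mark 2-fold.

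The largest class of rises was modest in size and took many counts. The 2607 genes that rose by less than 2-fold held 35.2% and 35.3% of the counts of the day 3 libraries, against 26.6% and 26.6% at day 0. Another 624 genes rose 2-fold to 4-fold, with 12.3% and 12.2% of the counts at day 3 against 4.92% and 4.88% at day 0. The 214 genes that rose 4-fold to 8-fold took 2.14% in each day 3 library, against 0.450% and 0.454% at day 0. The 144 genes with a rise of 8-fold to 32-fold took 1.41% and 1.42% at day 3 against 0.144% and 0.139% at day 0. A last class of 73 genes rose 32-fold or more, with 1.07% and 1.10% of the counts at day 3 against 0.0106% and 0.0108% at day 0. In 49 of these 73 the 2 day 0 libraries together held at most 3 counts, the floor used here, so their fitted fold rests on the fit's prior count. The 1055 rises of at least 2-fold together took 16.9% ± 0.019 at day 3, against 5.50% ± 0.029 at day 0, a larger gain than that of the smaller rises. Summed over all rises, the share was 52.1% ± 0.049 at day 3, against 32.1% ± 0.021 at day 0 (SD, n = 2 each).

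The falls differed in where their counts lay. The 2367 genes that fell by less than 2-fold held 19.3% and 19.3% of the counts at day 3, against 27.8% and 27.9% at day 0, and the 804 that fell 2-fold to 4-fold held 3.81% and 3.79% against 9.90% and 9.98%. The 275 genes with a fall of 4-fold to 8-fold took 0.297% in each day 3 library, against 1.70% and 1.71% at day 0. The 188 genes that fell 8-fold to 32-fold had been a larger part of the day 0 cells than the 275 of the class before: they took 0.314% and 0.306% at day 3 against 3.25% and 3.20% at day 0. The 80 genes that fell 32-fold or more were rare at both days, with 0.00227% and 0.00210% against 0.0935% and 0.0923%, and 67 had no more than 3 counts over both day 3 libraries. Summed over all falls, the share was 23.7% ± 0.010 at day 3, against 42.8% ± 0.12 at day 0 (SD, n = 2 each). The genes were sorted by the same libraries, so these shares describe the change and do not test it. The 5839 genes that did not pass took 24.1% ± 0.058 at day 3 and 25% ± 0.10 at day 0.

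**Figure D2:**
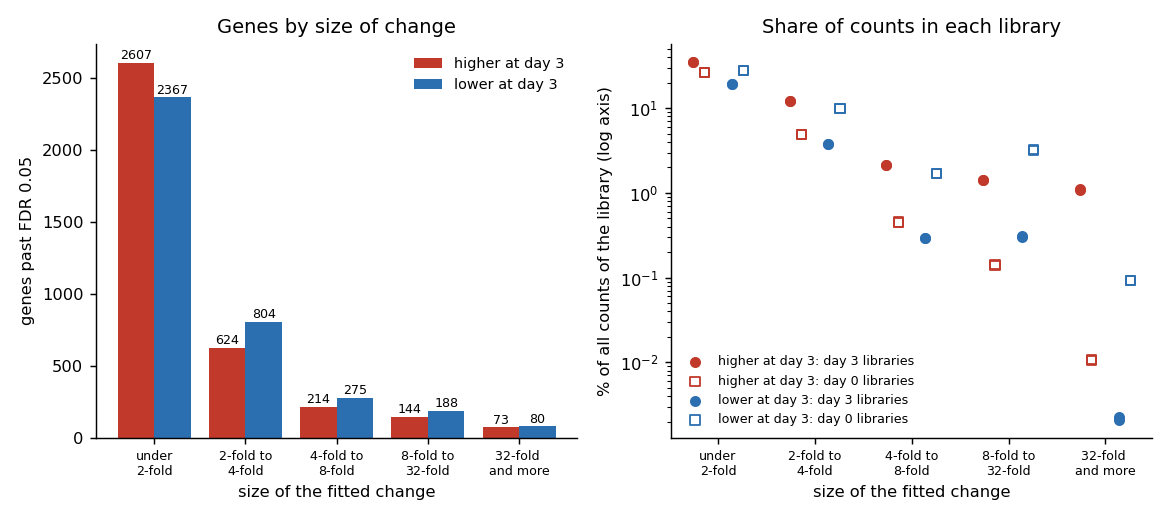
Left, the number of genes past an FDR of 0.05 in 14-day unloaded cells by size of the fitted change, with rises in red and falls in blue. Right, the share of all counts that each class held in each library on a log axis, with filled circles for the 2 day 3 libraries and open squares for the 2 day 0 libraries; replicates lie on top of each other, and the 80 strongest falls dropped to 0.00218% of the counts on average at day 3, against 0.0929% at day 0.

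A few abundant genes took a visible part of the shift. The 10 genes that gained the largest share took 9.35% and 9.29% of the counts at day 3, against 4.10% and 4.02% at day 0. All 10 passed the test, with log2 changes of 0.52 to 7.97 and a median of 1.51, and their mean level ran from 3870 to 25090 CPM at day 3 and from 23.5 to 17450 CPM at day 0. The 10 genes that lost the largest share took 2.18% and 2.14% at day 3, against 7.01% and 6.89% at day 0, with log2 changes of -4.90 to -0.62 and a median of -1.42. Their mean levels were 120.0 to 4874 CPM at day 3 and 3390 to 19230 CPM at day 0. A single gene led every HS14 library, holding 3.85% to 3.91% of counts at day 3, against 3.89% to 4.09% at day 0. Of the 10 most abundant genes, 9 were shared by both day 3 libraries, 10 by both day 0 libraries and 5 by all 4.

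The gains and losses of these abundant genes were seen in the other cells too, which share no library with HS14 in this comparison. Of the 10 genes with the largest gain, 9 rose in HS7 cells and 9 in control cells, where 1 fell; their median log2 change was 1.15 in HS7 and 1.05 in control cells. The backgrounds are 24.8% of tested genes rising in HS7 and 25.8% in control cells. All 10 genes with the largest loss fell in HS7 cells and in control cells, with median log2 changes of -1.11 and -1.15, against backgrounds of 26.9% and 26.8%. These backgrounds cover tested genes of all levels, and abundant genes passed more often. In HS14, 48.3% of genes with a mean of 500 CPM or more rose and 42.1% fell. Shares at that level were not counted in HS7 or control cells.

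The counts were held by fewer genes at day 3. The most abundant genes that together held 50% of a library numbered 358 and 357 in HS14 at day 3, against 414 and 419 at day 0. In HS7 cells the numbers were 457 and 453 at day 3, against 496 and 485 at day 0, and in control cells 478 and 481 at day 3, against 453 and 462 at day 0. Both day 3 libraries lay below both day 0 libraries in HS14 and in HS7 cells, and above both in control cells. The 100 most abundant genes took 34.7% and 34.8% of the counts in HS14 at day 3, against 32.3% and 32.1% at day 0. In HS7 cells they took 31.2% and 31.2% at day 3, against 29.5% and 30.2% at day 0. In control cells they took 30.5% and 30.3% at day 3, against 31.1% and 30.9% at day 0. With 2 libraries against 2, an exact two-sided permutation test cannot go below p = 0.333, so no difference in these numbers could pass. The TMM scaling factors moved with them: they were 0.943 and 0.942 in HS14 at day 3 and 0.979 and 0.983 at day 0, and 1.01 to 1.05 in the other 8 libraries. The part of depth in these numbers was not tested.

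**Figure D3:**
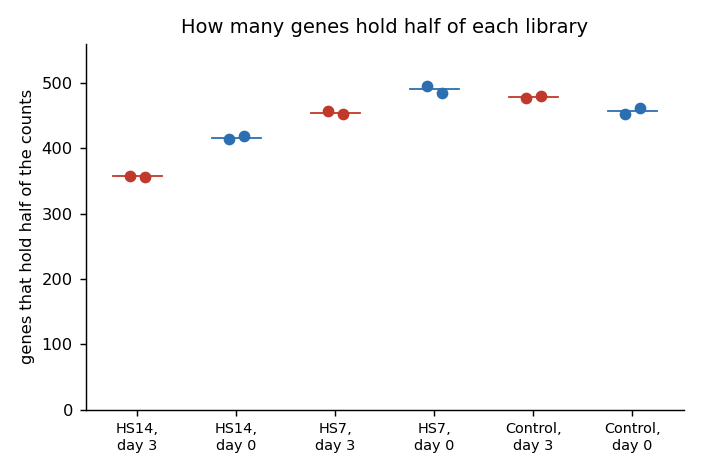
The number of most abundant genes that together hold 50% of the counts, in each library (points) with the mean of 2 libraries (line), for HS14, HS7 and Control at day 3 (red) and day 0 (blue). The HS14 libraries at day 3, with 358 and 357 genes, are the lowest of the 12.

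The chance to pass the test depended on the level of a gene. Of the 271 genes with a mean of 500 CPM or more over the 4 libraries, 48.3% rose and 42.1% fell, so 90.4% passed, and 26.2% both passed and had changed at least 2-fold. At 100 to 500 CPM 77.4% of 1563 genes passed, at 20 to 100 CPM 61.7% of 4864, at 5 to 20 CPM 52.9% of 3108 and at 1 to 5 CPM 45.0% of 1902. Under 1 CPM 27.8% of 1507 genes passed. The median standard error of the log2 change was 0.050 at 500 CPM and more, 0.092 at 20 to 100 CPM and 0.760 under 1 CPM, which sets how small a change could be seen. Changes of at least 2-fold that passed the test were least common at 20 to 100 CPM, where 10.1% of genes had one. The median absolute log2 change there, over genes that passed or not, was 0.29, against 0.55 in the most abundant class and 1.05 under 1 CPM. A median SE of 0.760 under 1 CPM enlarges such a median by itself, so these medians do not rank the classes by true change.

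A group of 25 genes was at the floor at day 0 and present at day 3. Each had at most 3 counts over both day 0 libraries, the floor, and at least 1 CPM in both day 3 libraries. All 25 were among the tested genes, and their day 3 levels in HS14 ran from 1.04 to 56.2 CPM with a median of 2.82. Together they took 0.0162% and 0.0166% of the counts at day 3. In HS7 cells 25 of the 25 rose as well, and in control cells 24 of 25, against backgrounds of 24.8% and 25.8%. At day 0, 12 of them were also at the floor in HS7 cells and 10 in control cells. At day 3, 16 of the 25 reached 1 CPM in both libraries in HS7 cells and 16 in control cells, with medians of 3.51 and 2.66 CPM. Their share of the counts at day 3 was 0.0164% and 0.0168% in HS7 cells and 0.0505% and 0.0510% in control cells. In control cells the highest of the 25 stood at 383 CPM, against 56.2 CPM for the highest in HS14. That gene of the control cells stood at 2.82 CPM in HS14 and 27.8 CPM in HS7 cells at day 3. It alone made up most of the control share.

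The reverse group held 31 genes, which had at least 1 CPM in both day 0 libraries and at most 3 counts over both day 3 libraries. All 31 were tested. Their day 0 levels in HS14 ran from 1.05 to 11.2 CPM with a median of 1.87. In HS7 cells 30 of the 31 fell, and in control cells 31 of 31, against backgrounds of 26.9% and 26.8%. At day 3, 19 of them were also at the floor in HS7 cells and 20 in control cells. Their share of the counts at day 3 was 0.000101% and 0.0000954% in HS14, 0.000352% and 0.000348% in HS7 cells and 0.000384% and 0.000360% in control cells. Genes were put in both groups by HS14 libraries alone, so the low shares in HS14 are part of the choice, and the calls in HS7 and control cells are not.

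The 4 named identifiers stood at the ends of the ranking of fitted changes, among genes that passed the test, did not overlap between the days and had a mean of at least 5 CPM at 1 of them. They were chosen on the HS14 libraries. Tests below of these libraries against HS7 or control cells are thus not independent of the choice. Such tests lean toward a higher HS14 level on the day when the gene was present. ENSRNOG00000050006 had the largest fitted rise. It had 932 and 1121 reads in HS14 at day 3, or 52.6 and 59.8 CPM, and 0 reads in both libraries at day 0, which allows up to 0.0749 CPM. It was thus at least 750-fold higher at day 3, or 375-fold if each read pair gave 2 counts (adjusted p = 1.00e-25, edgeR). In HS7 cells it reached 57.4 and 57.0 CPM at day 3, against 0 and 5 reads at day 0, and in control cells 16.7 and 17.0 CPM at day 3, against 0 and 2 reads at day 0. At day 3 HS14 was higher than control cells by 1.74 on the log2 scale (SE 0.13, adjusted p = 3.21e-13, edgeR), and the log2 difference from HS7 was -0.03 (SE 0.12, adjusted p = 0.913).

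ENSRNOG00000001837, the second in the ranking, had 268 and 220 reads in HS14 at day 3, or 15.1 and 11.7 CPM, and 0 reads at day 0. This is at least 179-fold higher, or 89.7-fold with reads counted in pairs (adjusted p = 6.50e-16, edgeR). It stood at 5.60 and 6 CPM in HS7 at day 3, against 0 reads at day 0, and at 15.4 and 12.3 CPM in control cells at day 3, against 0 and 10 reads at day 0. At day 3 HS14 and control cells overlapped (log2 difference -0.04, SE 0.23, adjusted p = 0.910), and HS14 was higher than HS7 by 1.21 (SE 0.25, adjusted p = 0.000338, both edgeR).

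ENSRNOG00000055293 had the largest fitted fall. It had 0 reads in HS14 at day 3, which allows up to 0.0822 CPM, against 209 and 239 reads at day 0, or 11 and 11.3 CPM. That is at least 136-fold lower, or 67.9-fold with reads in pairs (adjusted p = 8.34e-17, edgeR). HS7 cells had 0 reads at day 3, against 5.82 and 5.53 CPM at day 0, and control cells 0 and 2 reads at day 3, against 10.6 and 11.3 CPM at day 0. All 3 kinds of cells thus lost it to near the floor. The day 0 level of HS14 was 0.98 on the log2 scale above that of HS7 (SE 0.22, adjusted p = 0.00177). Its log2 difference from control cells at day 0 was 0.03 (SE 0.2, adjusted p = 0.951, both edgeR).

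ENSRNOG00000024870 had 0 reads in HS14 at day 3, against 117 and 103 reads at day 0, or 6.17 and 4.88 CPM. It was at least 67.2-fold lower, or 33.6-fold with reads in pairs (adjusted p = 2.55e-11, edgeR). In HS7 cells 2 and 0 reads at day 3 stood against 2.73 and 2.30 CPM at day 0, and in control cells 2 and 0 reads at day 3 against 2.01 and 1.22 CPM at day 0. Its day 0 level was higher in HS14 than in HS7 by 1.13 on the log2 scale (SE 0.36, adjusted p = 0.0351) and than in control cells by 1.76 (SE 0.38, adjusted p = 0.000587, both edgeR).

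**Figure D4:**
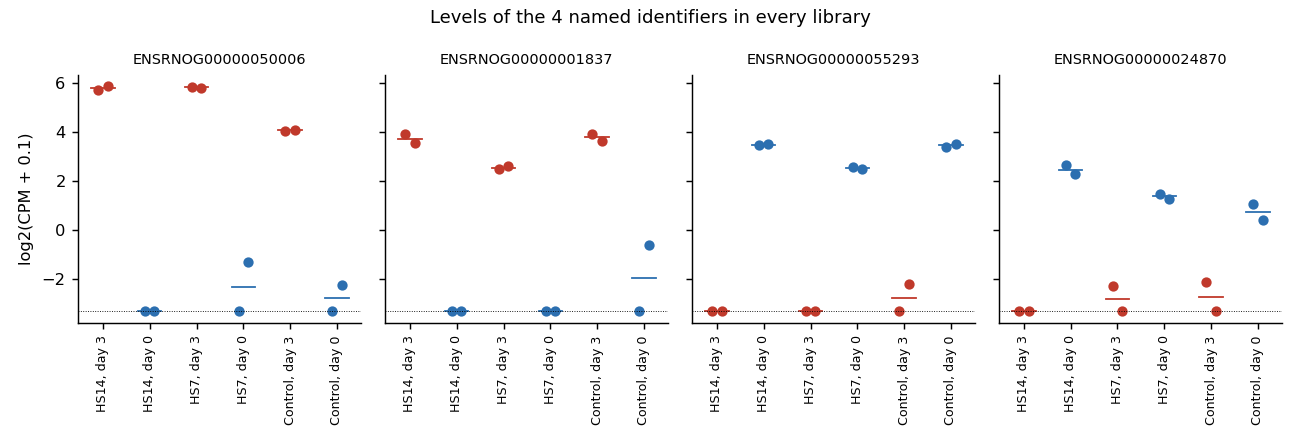
Levels of 4 identifiers in all 12 libraries as log2(CPM + 0.1), with the mean of 2 libraries as a line, day 3 in red and day 0 in blue; the dotted line marks 0 reads. The first and second panels show genes present at day 3 (52.6 and 59.8 CPM and 15.1 and 11.7 CPM in HS14) and at 0 reads at day 0 in HS14, the others genes with 0 reads at day 3 in HS14.

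The next comparison asked how far the response of HS14 cells, meaning the whole change at day 3 against day 0, was shared with that of HS7 and control cells. The 3 responses share no library. The number of genes past the FDR was 7376 in HS14, 6827 in HS7 (51.7%) and 6960 in control cells (52.7%), and the median absolute log2 change over all tested genes was 0.41, 0.37 and 0.38. At least 2-fold rises numbered 1055 in HS14, 862 in HS7 (6.52%) and 921 in control cells (6.97%), and at least 2-fold falls 1347, 1231 (9.32%) and 1331 (10.1%). The test against a 2-fold change was passed by 1426 genes in HS14, 1142 in HS7 (8.64%) and 1329 in control cells (10.1%). These numbers were not tested against each other. Libraries held 18803603 to 21484885 counts in HS14, 15551746 to 18179911 in HS7 and 15105521 to 18757578 in control cells. The chi-square per degree of freedom between replicates was 2.80 and 3.12 in HS14 at day 3 and day 0. It was 4.64 and 7.36 in HS7 and 2.69 and 4.17 in control cells. The part of depth and replicate spread in these numbers was not tested.

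Of the 3662 genes that rose in HS14, 2563 (70.0%) rose in HS7 cells, which is 78.3% of the 3275 that rose there. Control cells shared 2300 of the rises (62.8%), which is 67.4% of their own 3414. Of the 3714 falls, 2841 (76.5%) were falls in HS7, or 80.0% of its 3552, and 2571 (69.2%) were falls in control cells, or 72.5% of their 3546. Opposite calls were rare: 24 of the rises fell in HS7 and 122 fell in control cells, while 34 and 177 of the falls rose there. As background to the shared and the opposite calls, 24.8% of all tested genes rose and 26.9% fell in HS7 cells. In control cells 25.8% rose and 26.8% fell. A further 693 rises and 486 falls of HS14 passed the test in neither of the other cells, which does not show that they were unchanged there.

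The larger the rise in HS14, the more often the gene passed as a rise in HS7 cells. A larger change passes the test more easily, and its part in the shares below was not tested. The median log2 change in HS7 was 0.33 for genes that rose under 2-fold in HS14 and 5.04 for those at 32-fold or more. Backgrounds over all tested genes are 24.8% rising and 26.9% falling in HS7, and 25.8% and 26.8% in control cells. Of the genes that rose by less than 2-fold in HS14, 65.2% rose in HS7 and 57.8% in control cells. For rises of 2-fold to 4-fold the shares were 79.3% and 72.3%, for 4-fold to 8-fold 81.8% and 78.0%, for 8-fold to 32-fold 86.1% and 80.6%, and for 32-fold or more 93.2% and 79.5%. Among falls the shares were 72.0% in HS7 and 62.5% in control cells under 2-fold, 85.2% and 79.5% for 2-fold to 4-fold, 84.4% and 78.9% for 4-fold to 8-fold, 83.0% and 89.4% for 8-fold to 32-fold, and 80.0% and 85.0% for 32-fold or more. No gene that rose at least 2-fold in HS14 fell in HS7, and 17 fell in control cells. Of the at least 2-fold falls, 6 rose in HS7 and 29 in control cells. The size of the change was smaller in the other cells for genes chosen on HS14: the 1055 strong rises had a median log2 change of 1.75 in HS14, 1.36 in HS7 and 1.26 in control cells. For genes chosen on control cells the order turned: the 921 strong rises there had medians of 1.55 in HS14 and 1.77 in control cells. The 862 strong rises of HS7 had 1.76 in HS14 and 1.75 in HS7. Among falls, the 1347 chosen on HS14 had medians of -1.75 in HS14, -1.45 in HS7 and -1.51 in control cells. The 1231 strong falls of HS7 had -1.63 in HS14 and -1.74 in HS7, and the 1331 of control cells had -1.51 in HS14 and -1.82 in control cells. In 3 of these 4 sets chosen on other cells the median was thus larger in the cells used for the choice.

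Where the response of HS14 differed was tested directly, as the difference between its log2 change and that of the other cells. It differed from the HS7 response in 1134 genes (8.58%), with 547 more positive (4.14%) and 587 more negative (4.44%), and 2807 genes had an unadjusted p under 0.05. This number depended on single libraries. It was lower without any 1 of the HS14 libraries, without HS7 day 3 replicate 1 or without HS7 day 0 replicate 2. It was higher without HS7 day 3 replicate 2 or HS7 day 0 replicate 1. Fits with 1 library fewer also have less power, and the cause of these shifts was not tested. The split also moved with the scaling, with 461 more positive and 676 more negative for scaling to the total count, and 481 and 663 for DESeq2 size factors. Set against control cells, the HS14 response was different in 2900 genes (21.9%), with 1457 more positive (11%) and 1443 more negative (10.9%). With scaling to the total count 36.9% of these differences were positive, against 50.2% with TMM scaling. Both differences hold the same HS14 libraries, so they are given side by side and their overlap is not counted. The median absolute difference among genes that passed was 0.51 on the log2 scale from HS7 and 0.58 from control cells, and 192 and 668 genes differed by at least 2-fold.

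Most differences from HS7 were of size and not of direction. In 502 of the 1134 genes both cells changed the same way and HS14 changed more, and in 155 HS14 changed less. Both passed in opposite directions in 58 genes. In 229 only the HS14 change passed, in 186 only the HS7 change and in 4 neither. Against control cells 299 of the 2900 genes changed in opposite directions. HS14 changed more than control cells in 717 genes and less in 445, and its change alone passed in 774 genes and that of control cells alone in 630. The class of a gene and the test of the difference use the same HS14 libraries.

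**Figure D5:**
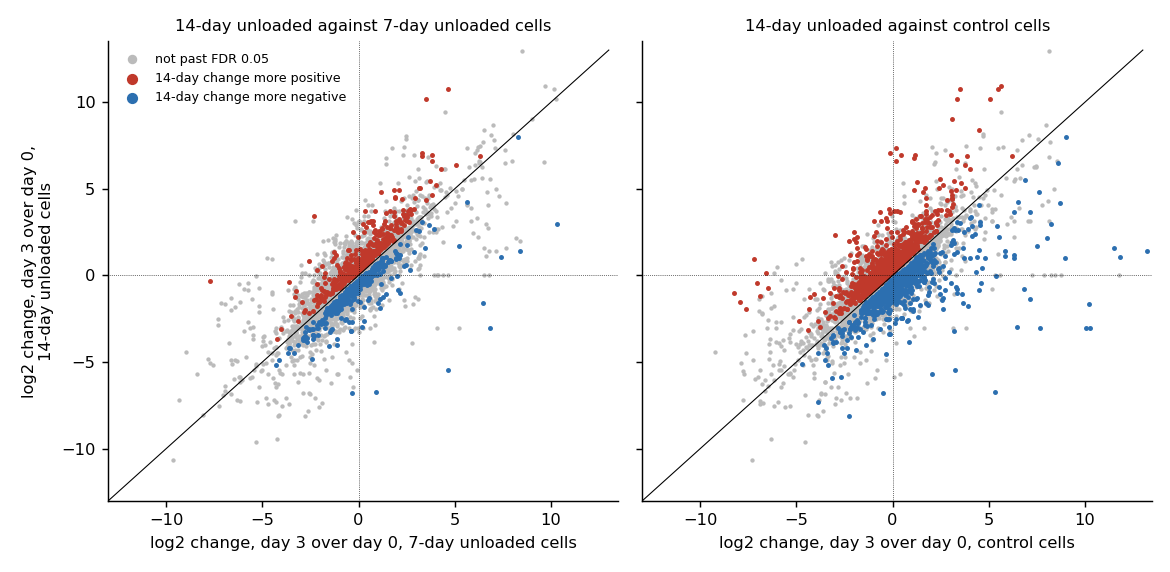
Fitted log2 change at day 3 over day 0 in 14-day unloaded cells (vertical axis) against that in 7-day unloaded cells (left) and in control cells (right), 1 point for each of 13215 genes, with the line of equal change. Coloured genes differed between the responses at an FDR of 0.05: 547 red and 587 blue on the left, 1457 red and 1443 blue on the right.

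A difference between responses is the difference at day 3 minus that at day 0, and both days took part. Of the 1457 genes with a more positive response than control cells, 965 were higher in HS14 than in control cells at day 3 (background 16.0%) and 59 lower (15.3%). At day 0, 49 of these genes were higher (7.85%) and 599 lower (8.89%). Their median log2 difference from control cells was 0.35 at day 3 and -0.22 at day 0. Among the 1443 with a more negative response, 48 were higher and 1097 lower at day 3, and 408 were higher and 65 lower at day 0, with medians of -0.44 and 0.14. Counting each gene of the 2900 once, 1566 passed at day 3 alone, 518 at day 0 alone and 603 at both days.

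Against HS7 cells the picture had the same form with fewer genes. Of the 547 with a more positive response in HS14, 377 were higher than HS7 at day 3 (background 11.6%) and 18 lower (11%), while 22 were higher (5.47%) and 197 lower (6.26%) at day 0. Of the 587 with a more negative response, 9 were higher and 423 lower at day 3, and 194 were higher and 26 lower at day 0. Of the 1134 genes, 620 passed at day 3 alone, 232 at day 0 alone and 207 at both days. These tests use the libraries that also gave the difference of the responses, so they show at which day a difference lay and are no separate evidence of it.

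Differences of the responses were also counted among the abundant genes that moved most. Of the 10 genes with the largest gain of counts in HS14, 8 had a more positive and 2 a more negative response than control cells, and 5 and 2 a more positive and a more negative response than HS7 cells. Of the 10 with the largest loss, 7 had a more negative response than control cells and 6 than HS7 cells, and 0 a more positive one. Over all tested genes, 11% were more positive and 10.9% more negative than in control cells, and 4.14% and 4.44% than in HS7 cells. Those shares include genes of low level, and the median SE of the log2 change was 0.050 at 500 CPM and more, against 0.124 over all tested genes. The 10 and 10 genes were chosen on the HS14 libraries, so nothing is read from these counts.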

How the data were processed

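Poly(A) RNA was sequenced with a stranded mRNA kit (TruSeq) and 51 bp reads, per the labels. The authors deposited 1 table of unnormalized counts, with 32622 Ensembl identifiers as rows and the 12 labelled libraries as columns; 0 other columns of values were present. Per the submitters' processing notes the tools include STAR 2.7, featureCounts 1.6.4, FastQC 0.11.9 and DESeq2, and the genome build is Rnor_6.0. Their roles, the annotation release, the strand setting and how read pairs were counted: not given in the sources used here. Reads of near-identical or overlapping genes may be shared between them.

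From these counts, edgeR 4.0.16 in R 4.3.3 removed low genes with filterByExpr, leaving 13215 with at least 99.96% of each library's counts. Libraries were scaled by TMM and 1 quasi-likelihood fit (glmQLFit, glmQLFTest) of 6 group means covered the 12 libraries. This left 6 residual degrees of freedom, and the biological coefficient of variation was 5.66%. The fit draws the spread of each gene toward that of all genes, so p-values rest on more than those 6. Tests are two-sided with Benjamini-Hochberg FDR 0.05 over all genes, and SE is the log2 change divided by the square root of F. glmTreat tested against a 2-fold change. CPM uses TMM-scaled libraries. The floor is 3 counts over the 2 libraries of a group and covers counting error only. Alternatives were DESeq2 1.42.0, other scalings and filters, halved counts, a replicate term, fewer libraries and each library left out; the code was tested on simulated data.

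The libraries, lists and rules were chosen with earlier results of these data known. The rule for naming was the 10 largest rises and falls past the FDR with no overlap, at least 5 CPM and a symbol, with members of 36 gene lists, 8 of them cell markers. Since 0 identifiers matched a symbol, the lists and the other naming rules were not used, no promoter could be assigned to a gene, and the rule's fallback of 2 identifiers that rose and 2 that fell was used. Fold classes and the groups of genes at the floor were set after the data had been seen.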

Additional observations from a re-analysis of the deposited data

Results flagged for a closer look

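In edgeR's quasi-likelihood test of the difference between responses, HS14 cells departed from each of the other cells at day 3 against day 0. From control cells it differed in 2900 of 13215 genes, and from HS7 cells in 1134. Of the named identifiers, ENSRNOG00000001837 had a larger fitted rise in HS14 than in control cells (difference of 5.26 between the log2 changes, with SE 1.72 and adjusted p = 0.0245 from edgeR). Its HS14 day 0 libraries both had 0 reads and its control day 0 libraries 0 and 10, while at day 3 the cells overlapped in level (15.1 and 11.7 CPM in HS14, 15.4 and 12.3 CPM in control cells). The fitted value depends on the prior count, is no bound, and rests on 1 control library. The identifier was also chosen on its HS14 rise. No test of its response against HS7 cells is given, since both day 0 groups had 0 reads, and none for ENSRNOG00000055293, with 0 reads in both day 3 groups. For the other 3 named identifiers the adjusted p of the difference from control cells was 0.102 to 0.242 by edgeR.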

How the results depend on the processing

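The 7376 changed genes of HS14 cells became 6862 with DESeq2, 7370 with scaling to the total count, 7152 and 7272 with the filter of 1 CPM in 4 libraries and with no filter, 7327 on halved counts, 7885 with the 4 libraries alone and 6199 to 6349 with 1 library left out. The test against a 2-fold change, added after the data were seen, left 1426 genes, 615 rises and 811 falls. With the replicate number as a block the counts were 7289, 2741 for the difference from control cells and 1023 for that from HS7. Same-numbered replicates deviated together at r = -0.026 between the HS14 days, and between -0.051 and 0.041 over all 15 pairs of groups. No shared deviation of same-numbered replicates was thus seen. With 2 libraries per group this cannot show whether they came from the same animals or batches. The block changed no count by over 1.5 times. The difference from control cells stayed within 1.5 times of 2900 in all 16 alternatives (2113 to 3439). The difference from HS7 ranged from 646 to 1530 with 1 library left out, 352 to 758 more positive and 294 to 772 more negative; the cause was not tested. No gene called in both fits changed sign under any alternative. The 4 named identifiers kept direction and call in all 12 alternatives each. Alternatives for gene lists were not run, as no list could be matched. Depth limits genes under 1 CPM most, and 2 libraries per group allow no search for outliers.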
